A study of Mus musculus with 5 samples.

Results

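The Hox cluster genes were the 39 protein-coding genes of the Hoxa, Hoxb, Hoxc and Hoxd clusters, chosen by symbol alone (Hoxa, Hoxb, Hoxc or Hoxd followed by a paralogue number) from the 32286 features counted in these single-cell RNA-seq libraries. All 39 were found, with 11 in Hoxa, 10 in Hoxb, 9 in Hoxc and 9 in Hoxd. Their levels were described by cluster and paralogue number in tumor, mural, fibroblast, endothelial and macrophage cells of 5 synovial sarcoma (SyS) tumors from *hSS2* mice. In all of these mice TATCre protein had been injected into the hindlimb early after birth to activate the human *SS18::SSX2* fusion, the driving oncogene of SyS, so every tumor carried the fusion and no tissue without it was sequenced. Mice were of a mixed CB57Bl/6-svJ strain and 2 to 6 months old across the whole study. Tumors were harvested at morbidity, with no age per tumor in the sources used here. By histology in the labels, 2 tumors were BP (biphasic, with an epithelial component), 1 was MP (monophasic, spindle cells), 1 was MP+BP and 1 was PD+MP, where PD stands for poorly differentiated. TATCre acts on whichever cells take it up, so the Cre marks no single cell type.

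Hox genes encode homeodomain transcription factors that give cells along the body axis and along the limb their positional identity. Their order on the chromosome follows the order of their domains in the embryo, with low paralogue numbers expressed toward the head and high numbers toward the tail and the tip of the limb. Genes with the same number in different clusters are paralogues, descended from 1 ancestral gene. In cells that do not use them, the clusters are classic targets of Polycomb repression, and mesenchymal cells of the adult keep much of the Hox pattern of the place they came from.

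Cell classes were rebuilt here by clustering without the Hox genes, and each is called X-like after its markers. SyS-like tumor cells numbered 2492 (BP replicate 1), 4610 (BP replicate 2), 4230 (MP), 4778 (MP+BP) and 5857 (PD+MP). Mural-like cells (pericytes and vascular smooth muscle) numbered 255, 178, 535, 260 and 39 in the same order, endothelial-like cells 612, 562, 656, 524 and 81, and macrophage-like cells 894, 974, 493, 545 and 957. Fibroblast-like cells reached the minimum of 20 cells only in PD+MP, which had 124. Of the SyS markers, 10 of 11 were highest in SyS-like cells, as were all 12 mural, all 10 endothelial and all 10 macrophage markers in their own classes and 9 of 10 fibroblast markers in theirs. Kept cells had a median of 6340 to 8536 UMIs (unique molecular identifiers, 1 per captured RNA molecule). Libraries shared at most 33 cell barcodes per pair. Levels are given as CPM, the UMIs of a gene per 1000000 UMIs of all cells of a class in 1 tumor. With this 3′ chemistry a molecule gives 1 count whatever its length, so CPM was not scaled by gene length. Other differences between genes in how fully their RNA is counted were not tested. A label with 1 tumor has no replicate spread, so labels are set side by side without a test unless stated. Values of the 5 tumors are listed in 1 fixed order throughout, which is BP replicate 1, BP replicate 2, MP, MP+BP, PD+MP.

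In SyS-like cells the Hoxc and Hoxb clusters carried most of the Hox RNA, and its amount differed from tumor to tumor far more than in any other class. The summed level of the 9 Hoxc genes was 602 CPM in BP replicate 1 and 622 in BP replicate 2, while MP had 23.7, MP+BP 72.9 and PD+MP 1427. The 10 Hoxb genes summed to 161, 123, 3.53, 113 and 898 CPM in the same order. MP was lowest and PD+MP highest in both clusters. The 11 Hoxa genes summed to 7.09, 2.86, 4.15, 15.4 and 181 CPM, so that this cluster stood high only in PD+MP. The 9 Hoxd genes stayed between 1.49 and 9.03 CPM in every tumor. All 39 genes together reached 777, 750, 33.6, 210 and 2514 CPM, a ratio of 74.8 between the highest and the lowest tumor. The same ratio was 2.10 in mural-like, 1.47 in endothelial-like and 6.08 in macrophage-like cells.

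**Figure D1:**
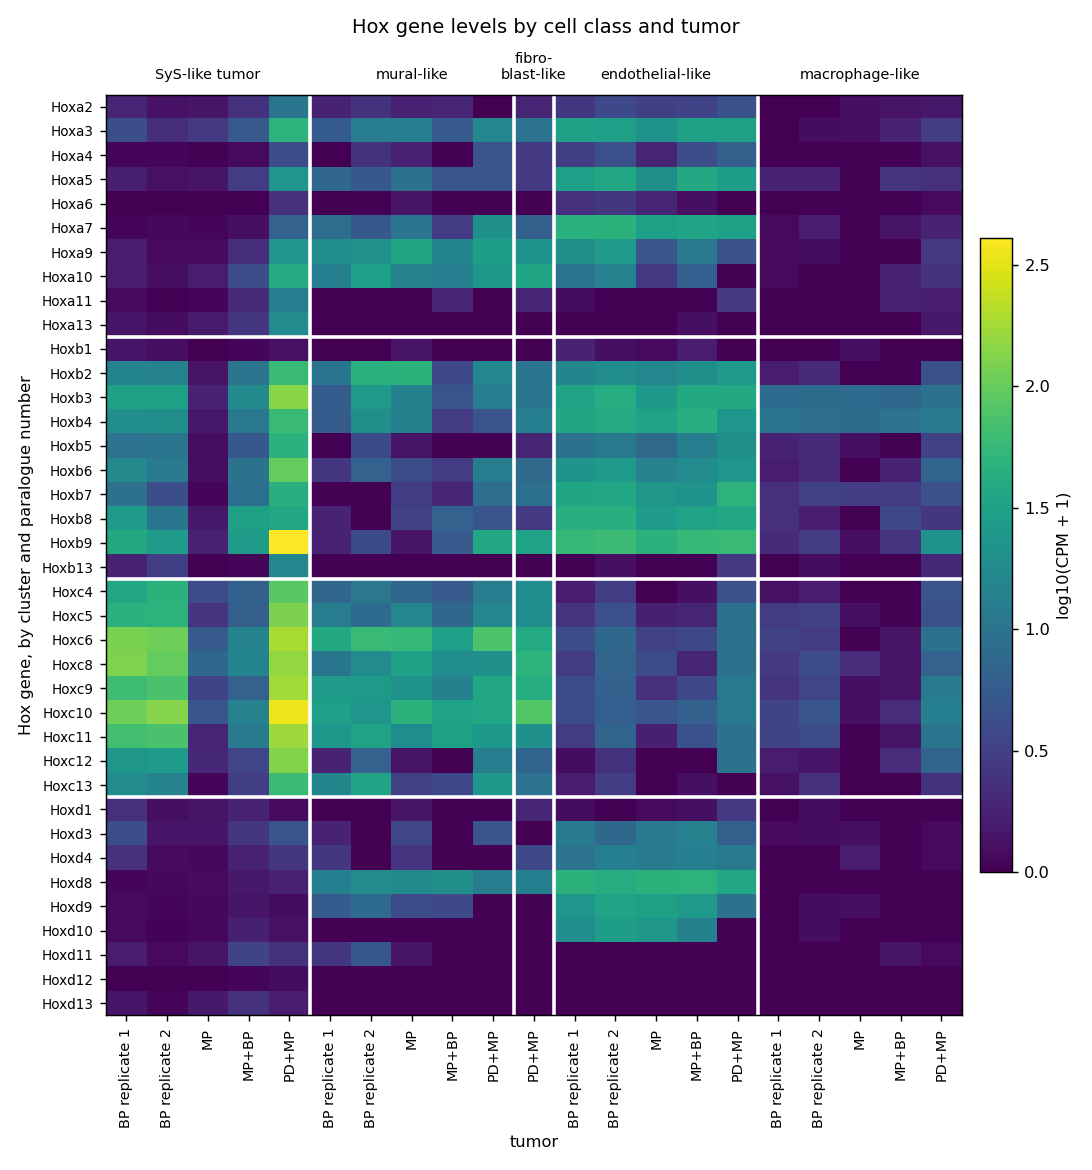
Level of Hox genes (rows, by cluster and paralogue number) in each cell class and tumor (columns), as log10(CPM + 1). Hoxb and Hoxc rows are bright in SyS-like cells of BP and PD+MP and dark in MP, while Hoxd8 is bright in mural-like and endothelial-like cells of all 5 tumors.

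Among the Hoxc genes, Hoxc10, a posterior gene of the limb and lumbar region, was the highest in PD+MP and in BP replicate 2. It stood at 107 and 137 CPM in the BP tumors, with 4.0 for MP, 13.4 for MP+BP and 349 for PD+MP. Hoxc6, a central gene of the thoracic region, was measured at 120, 108, 4.47, 13.8 and 182 CPM in that order. Hoxc8, its neighbor in number, was the highest Hoxc gene of BP replicate 1, with 126, 98.4, 6.38, 14.1 and 152 CPM. The BP pair lay close together for each of these 3 genes, with means of 122 ± 21.3 CPM for Hoxc10, 114 ± 8.37 for Hoxc6 and 112 ± 19.8 for Hoxc8 (SD, n = 2). Hoxc12, one of the last genes before the end of the cluster, gave 23.1, 26.1, 1.02, 2.47 and 130 CPM. Hoxc13, at the end, known for its part in hair and nail, had 17.0, 13.8, 0.0825, 2.07 and 59.6 CPM. Every Hoxc gene was lowest in MP, second lowest in MP+BP and highest in PD+MP.

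Among the Hoxb genes, Hoxb9, a gene of the trunk, was the highest Hox gene of all in PD+MP. Its levels were 37.3 and 25.9 CPM in the BP tumors, with 0.756 for MP, 26.2 for MP+BP and 406 for PD+MP. Hoxb3, an anterior gene of the hindbrain and neck, followed with 30.3, 29.7, 0.838, 16.6 and 139 CPM. Hoxb8, a central gene also used by blood progenitors, went another way, with 26.7, 9.57, 0.481, 29.7 and 34.5 CPM. MP+BP and PD+MP thus differed by little in Hoxb8 and by much in Hoxb9. Hoxb13, which lies apart at the 5′ end of its cluster and marks the tail and the prostate, was at 15.1 CPM in PD+MP, 2.07 in BP replicate 2, 0.773 in BP replicate 1 and 0.0957 in MP+BP. MP held 0 Hoxb13 UMIs among its SyS-like cells, which allows up to 0.0507 CPM. Hoxb1, the first gene of the cluster, did not pass 0.416 CPM in any tumor.

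**Figure D2:**
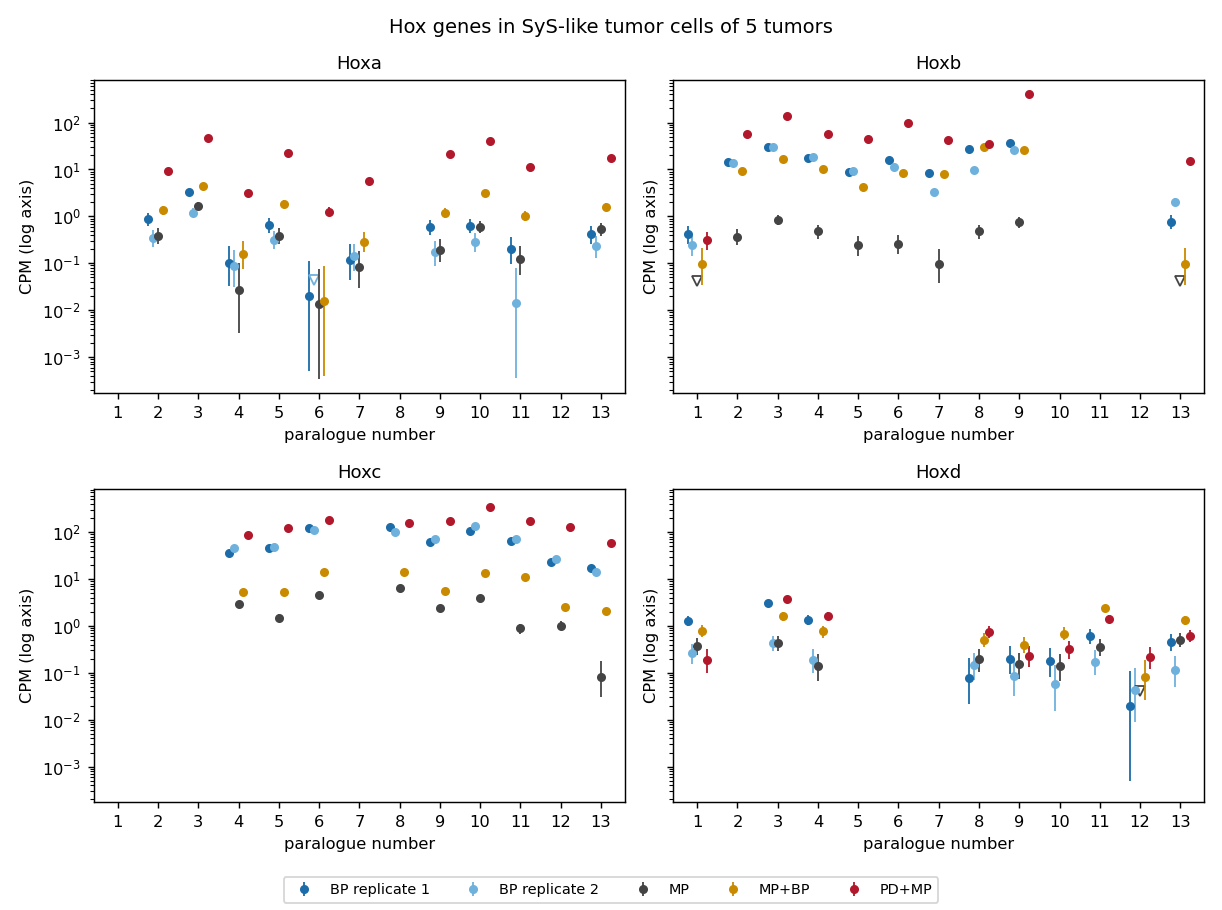
CPM (log axis) of Hox genes in SyS-like cells by paralogue number, 1 panel per cluster and 1 color per tumor. Bars are exact 95% Poisson intervals, open triangles mark genes with 0 UMIs at the level that 3 UMIs would give, and the MP points lie lowest for every Hoxc gene.

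Outside PD+MP, no Hoxa gene passed 4.53 CPM over the SyS-like cells of a tumor. Hoxa3, an anterior gene, reached 3.27, 1.20, 1.69, 4.53 and 47.2 CPM. Hoxa10, a gene of the upper limb and uterus, gave 0.634, 0.287, 0.605, 3.09 and 39.8 CPM. Hoxa13, which patterns the digits and the genital tract, gave 0.416, 0.230, 0.536, 1.58 and 17.3 CPM. PD+MP stood far above the next tumor, MP+BP, in each of the 3 genes. Hoxa6 was all but undetected outside PD+MP, with 1.27 CPM there and 0 UMIs in BP replicate 2. Among the Hoxd genes the highest value in any tumor was 3.72 CPM, for Hoxd3 in PD+MP. Hoxd11 and Hoxd13, posterior genes of the forearm, shank and digits, were highest in MP+BP, at 2.39 and 1.34 CPM.

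By paralogue number, the posterior genes (9 to 13) made up 40.6%, 46.7%, 34.8%, 34.7% and 55.6% of all Hox UMIs of the SyS-like cells, with PD+MP highest. The anterior genes (1 to 3) made up 6.12% to 16.5%. Endothelial-like cells lay lower for posterior genes, at 22.1% to 30.4% over the 5 tumors, and mural-like cells lay between 36.5% and 51.9%. The share of posterior genes in SyS-like cells overlapped that of mural-like cells and lay above that of endothelial-like cells in each tumor.

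Each of the 37 Hox genes that passed the filter on low counts in SyS-like cells differed at least 4-fold between its highest and its lowest tumor, with fewer than 3 UMIs set to 3. Over all 20668 genes tested there the share was 25.9%, and over those outside the clustering features, from which the Hox genes had been removed by name, it was 23.3%. The median ratio was 74.2 for the 37 Hox genes and 2.16 for all genes tested. The highest was 722, for Hoxc13, and the lowest 4.63, for Hoxd9. Of these 37 genes, 31 were highest in PD+MP and 23 lowest in MP, against 13.4% and 19.0% of all genes outside the clustering features that differed 4-fold. The 2 genes that did not pass were Hoxa6 and Hoxd12. These ratios carry counting error only and rest on 5 tumors, of which BP alone has a replicate.

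The histology label was then tested with 3 tumors whose label holds BP against the 2 without it. edgeR's quasi-likelihood test called none of 37 Hox genes at an adjusted p under 0.05, against a background of 0% of all genes higher and 0% lower, and DESeq2 called none either. At an unadjusted p under 0.05, 6 of the 37 Hox genes were lower and 0 higher in tumors with a biphasic label, where the background at this threshold was 4.39% of all genes lower and 5.04% higher. The 2 tumors on the other side, MP and PD+MP, held the lowest and the highest Hox levels of the series. The smallest adjusted p of any gene was 0.45. Without MP, 8 Hox genes were called lower in the tumors with a biphasic label, in a fit that leaves PD+MP alone on its side and assumes that it varies like the other group. On simulated data this design found 5.21% of genes changed by 2 on the log2 scale, so it could miss large differences.

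The Hox level was not uniform within a tumor, although Hox genes had no part in the clustering. MP+BP held the widest range. Its largest SyS-like cluster, of 2357 cells led by Pcp4 and Syt1, had 33.1 CPM of Hox RNA in all, 15.2 from Hoxb and 13.4 from Hoxc. A second cluster of 1335 cells, led by Cpvl and Npnt, had 571 CPM, with 370 from Hoxb and 144 from Hoxc. Another, of 252 cells led by Mgp and Cartpt, had 950 CPM, with 464 from Hoxc. In this total the first of these clusters lay nearer to MP than to the other clusters of its own tumor. The SyS-like clusters of MP lay between 29.8 and 40.7 CPM. By cluster it differed from MP, since Hoxb exceeded Hoxc in it, as in the second cluster. The SyS-like clusters of MP had 3.06 to 6.65 CPM of Hoxb and 21.8 to 27.8 of Hoxc. Hoxb8 showed the same step, from 2.80 CPM in the first cluster to 112 in the second. The 210 CPM of this tumor is thus an average over clusters from 33.1 to 950 CPM.

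In the BP tumors, the main SyS-like clusters lay close to each other and 1 cluster in each tumor stood apart in Hoxb. In BP replicate 1, a cluster of 468 cells led by B530045E10Rik and Gbp2b had 333 CPM of Hoxb, against 94.7 to 112 in the other SyS-like clusters of that tumor. Its Hoxc13 level was 2.02 CPM against 21.9 to 24.6 there, and its Hoxc6 level was 223 against 77.7 to 94.3. In BP replicate 2, a cluster of 296 cells led by Ecrg4 and Car3 had 443 CPM of Hoxb, against 72.7 to 112 in the others, and a Hoxc6 level of 102 CPM within their 90.0 to 120. Its Hoxc10 level was 163.5 CPM against 109 to 142.5, and its Hoxc13 level 19.7 against 11.97 to 14.75. Hoxc13 thus lay below the other SyS-like clusters in the first of these clusters and above them in the second. In PD+MP, the SyS-like clusters of over 1000 cells lay between 2360 and 2709 CPM. A smaller one, of 108 cells led by Mgp and Cartpt, had 1726 CPM. Its Hoxd level was 116 CPM against 6.79 to 8.62 in the larger ones, and its Hoxb9 level 135 against 272 to 449.5. These are descriptions, since cells and clusters are not replicates.

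**Figure D3:**
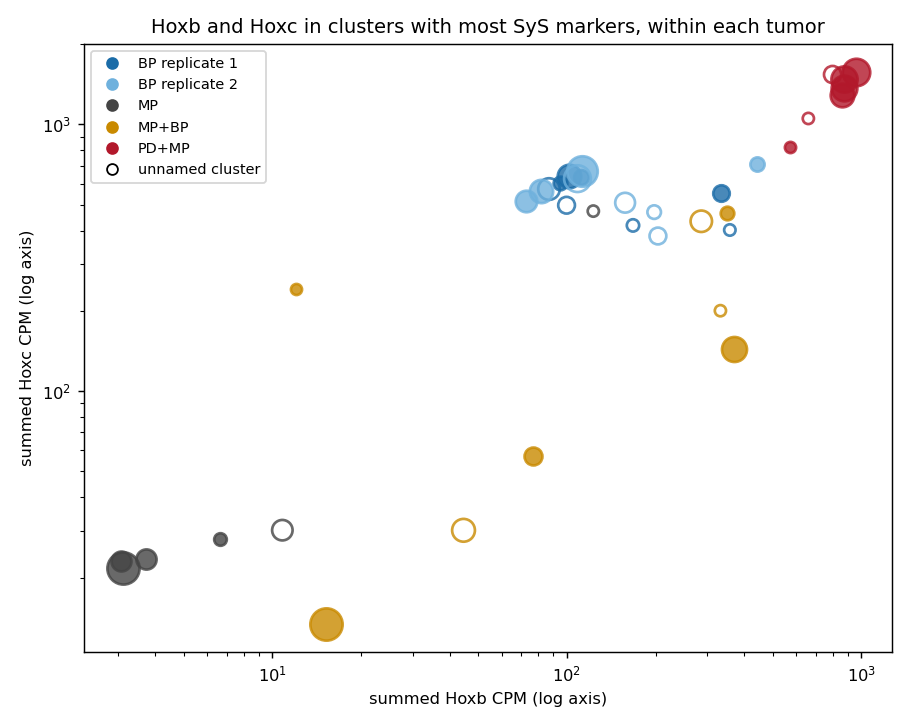
Summed Hoxb CPM (x, log axis) against summed Hoxc CPM (y, log axis) for each cluster with at least 100 cells of a tumor. Color gives the tumor, area grows with the number of cells, and open circles are unnamed clusters in which SyS markers were the most numerous. MP+BP clusters are spread from near MP up to the BP tumors, while PD+MP clusters lie at the upper right.

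Unnamed clusters in which SyS markers were the most numerous class, kept out of the tumor cells because their leading genes went against the name or their UMI counts were low, held 28.1%, 32.5%, 14.1%, 25.7% and 8.16% of kept cells. Their summed Hox level was 666, 713, 188, 560 and 2418 CPM in that order. It was close to that of SyS-like cells in the BP tumors and PD+MP and above it in MP and MP+BP. In MP, 109 cells of a cluster led by Col1a1, Kcnma1 and Bmp5 had 731 CPM of Hox RNA and 473 of Hoxc, while 827 cells of another unnamed cluster had 55.6 CPM. Cells of the Col1a1 cluster in MP+BP numbered 926 and had 837 CPM. Adding all these cells to the tumor cells, an alternative chosen after seeing the data, gave counts of called Hox genes within 1.5 times of those below.

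Mural-like cells of every tumor, MP included, carried Hox RNA at similar levels. The summed Hox level was 254, 408, 378, 216 and 452 CPM. Hoxc gave 189 ± 44.4 CPM (SD, n = 5), Hoxa 67.7 ± 23.3, Hoxb 62.6 ± 37.9 and Hoxd 22.1 ± 4.68. By the mean over tumors, Hoxc6 led with 37.6, 56.8, 55.2, 28.8 and 74.0 CPM, although Hoxc10 and Hoxc11 exceeded it in MP+BP, and Hoxc10, Hoxc11 and Hoxc9 followed with means of 32.9 ± 8.62, 25.1 ± 5.52 and 24.0 ± 8.09 CPM. In MP, where the 9 Hoxc genes summed to 193 CPM in mural-like cells, they summed to 23.7 in tumor cells of the same library. The reference genes for free RNA, a set of 6 genes largely restricted to tumor cells among these classes, reached 1.49% to 3.62% of their tumor-cell level in mural-like cells of 4 tumors and 12.5% in MP+BP. The part of such RNA in mural levels was not tested. In MP the mural Hoxc level was 817% of the tumor-cell level.

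Against mural-like cells of the same tumors, SyS-like cells were higher in 3 Hox genes and lower in 6 of 28 tested (edgeR quasi-likelihood test with the tumor as a block, Benjamini-Hochberg adjusted p under 0.05). The background outside the clustering features was 20.2% of genes higher and 11.3% lower. The median log2 fold change of the 28 was -0.136, against 0.164 over all genes. Hoxb9 was higher by 3.23 ± 0.37 on the log2 scale (SE, adjusted p = 4.53e-05) and in 5 of 5 tumors. Hoxc12 was higher by 3.04 ± 0.43 (adjusted p = 0.000218), also in 5 of 5, and Hoxb5 by 3.26 ± 0.80 (adjusted p = 0.00792) in 4 of 5. Mural-like cells held 1 UMI of Hoxb9 and 1 of Hoxc12 in MP, and 0 of Hoxc12 in MP+BP. Tumor cells there lay at 0.756, 1.02 and 2.47 CPM, below the 1.10 (MP) and 2.79 CPM (MP+BP) that 3 mural UMIs would give. No difference was detectable in these cases. Lower genes were Hoxd8, a central gene, Hoxd9, and Hoxa5, Hoxa7, Hoxa9 and Hoxa10. Without MP the count was 16, with 11 higher and 5 lower, and without the tumor as a block it was 4. The calls of Hoxb9 and Hoxb5 ended when doublets were kept, at log2 fold changes of 0.11 and 0.03.

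Hoxd8 separated tumor cells from mural-like cells in every tumor. Tumor cells had 0.0793, 0.144, 0.192, 0.511 and 0.742 CPM. Mural-like cells had 12.5, 17.0, 16.4, 18.6 and 11.7 CPM. The groups did not overlap, and the fitted log2 fold change was -6.17 ± 0.52 (edgeR adjusted p = 4.54e-06). Hoxa9 gave 0.594, 0.172, 0.192, 1.20 and 21.8 CPM in tumor cells against 18.0, 19.9, 34.0, 13.9 and 27.3 in mural-like cells. It was lower in tumor cells of all 5 tumors, by a small margin in PD+MP, with a log2 fold change of -4.90 ± 0.92 (edgeR adjusted p = 0.00159). Hoxa10 was lower in 4 of 5. PD+MP had 39.8 CPM in tumor cells and 23.4 in mural-like cells. The latter came from 6 UMIs, with an interval of 8.58 to 50.9 CPM, so no direction was detectable in PD+MP. By CPM, Hoxa5 was lower in 4 of 5 as well, with overlapping intervals in MP+BP and PD+MP. Its call ended without either BP tumor or without MP. Hoxa13 and Hoxb13 had 0 UMIs in mural-like cells of all tumors. In PD+MP, tumor cells stood at 17.3 CPM of Hoxa13 and 15.1 of Hoxb13, with exact 95% Poisson intervals of 16.4 to 18.3 and 14.2 to 16.0. In its 39 mural-like cells 0 UMIs allow up to 14.4 CPM by the same interval. Hoxa13 lay above that level, while the intervals of Hoxb13 overlapped, so no difference in Hoxb13 was detectable. In the other 4 tumors both genes lay in tumor cells below the level that 0 mural UMIs allow, 1.35 to 5.24 CPM, so no difference was detectable there.

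**Figure D4:**
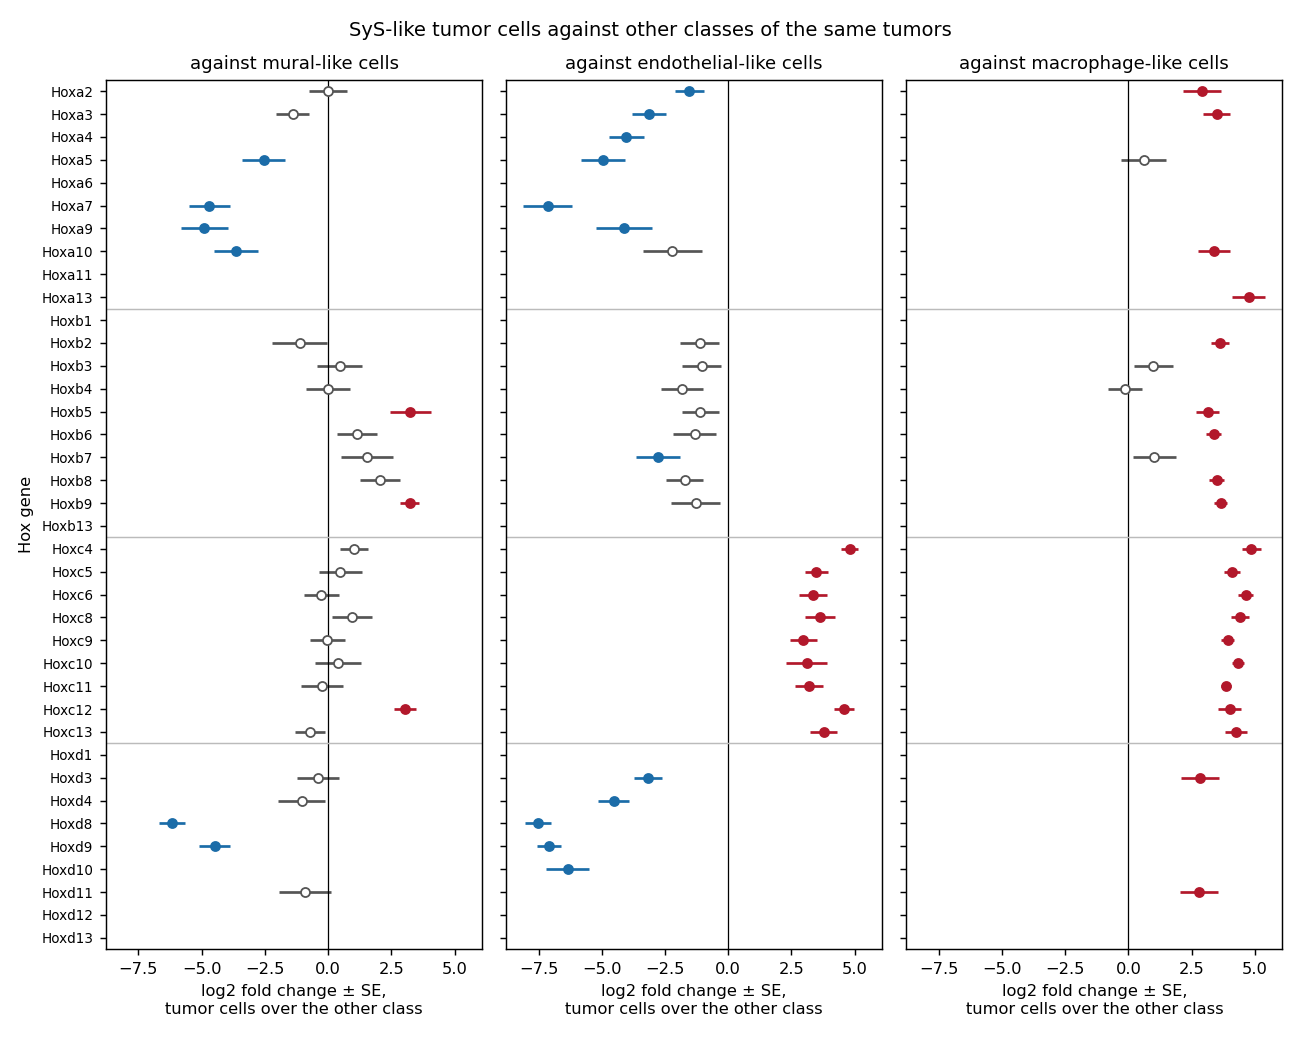
Log2 fold change ± SE of tested Hox genes in SyS-like tumor cells over mural-like, endothelial-like and macrophage-like cells of the same tumors. Filled points passed an adjusted p under 0.05 (red higher, blue lower in tumor cells), open points did not, and genes without a point were not tested. All 9 Hoxc genes are higher than in endothelial-like cells, and 5 Hoxd genes lower.

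Endothelial-like cells had the steadiest Hox level of the 4 classes present in all tumors. The 39 genes summed to 501, 585, 398, 484 and 498 CPM. Hoxb, which with Hoxc carried most of the Hox RNA of tumor cells, led here at 240 ± 34.5 CPM (SD, n = 5). Hoxa was at 119 ± 30.3, Hoxd at 104 ± 24.3 and Hoxc at 29.6 ± 23.1. Hoxc had the lowest mean of the 4 clusters here and the highest in tumor cells. By the mean over tumors, Hoxb9 led at 53.5, 61.1, 45.1, 54.9 and 56.6 CPM, and Hoxd8 followed at 46.6, 40.5, 46.8, 47.9 and 36.0. The order varied, with Hoxd8 above Hoxb9 in MP, Hoxa7 above Hoxd8 in BP replicate 2 and Hoxb7 above Hoxd8 in PD+MP. Hoxa7, a central gene, was at 36.7 ± 8.59 CPM and Hoxa5, known as a quiescence factor of vessels, at 29.3 ± 7.02. Hoxd10, another gene linked to resting endothelium, was at 17.9, 27.4, 23.3 and 12.9 CPM in 4 tumors. It had 0 UMIs in the 81 cells of PD+MP, which allows up to 6.33 CPM. Hoxd11, Hoxd12 and Hoxd13 had 0 UMIs in this class in all 5 tumors. The reference genes for free RNA stood at 1.02% to 2.99% of their tumor-cell level here, and the Hoxc genes at 2.59% to 6.01% in the BP tumors and PD+MP, 22.6% in MP+BP and 49.7% in MP.

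Against endothelial-like cells, SyS-like cells were higher in 9 and lower in 13 of 30 Hox genes tested, where the background was 30.7% of genes higher and 18.9% lower. The 9 higher genes were the whole Hoxc cluster, each with the higher CPM in tumor cells of 5 of 5 tumors. Hoxc4 had the largest log2 fold change of these, 4.80 ± 0.32 (edgeR adjusted p = 2.44e-06), and Hoxc9 the smallest, 2.97 ± 0.54 (adjusted p = 0.00131). In MP the direction was less certain. Its tumor cells had 0.0825 CPM of Hoxc13, below the 0.647 CPM that 0 endothelial UMIs allow, so no difference was detectable. For Hoxc5, Hoxc9, Hoxc10 and Hoxc11 in MP, the exact 95% Poisson intervals of the tumor and endothelial-like cells overlapped. Hoxc10 was nearest to level, with a log2 ratio of 0.05. The 13 lower genes were Hoxb7, 7 Hoxa genes, with Hoxa7 and Hoxa9 among them, and 5 Hoxd genes (Hoxd3, Hoxd4, Hoxd8, Hoxd9 and Hoxd10). Hoxd8 fell by 7.53 ± 0.51 on the log2 scale (adjusted p = 2.52e-06) and Hoxa7 fell by 7.15 ± 0.96 (adjusted p = 0.000208), both in 5 of 5 tumors. Of the 8 Hoxb genes tested, 7 did not pass. Hoxa2 lost its call in 9 of 12 alternatives. Leaving out 1 tumor at a time gave 22 to 24 called Hox genes.

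**Figure D5:**
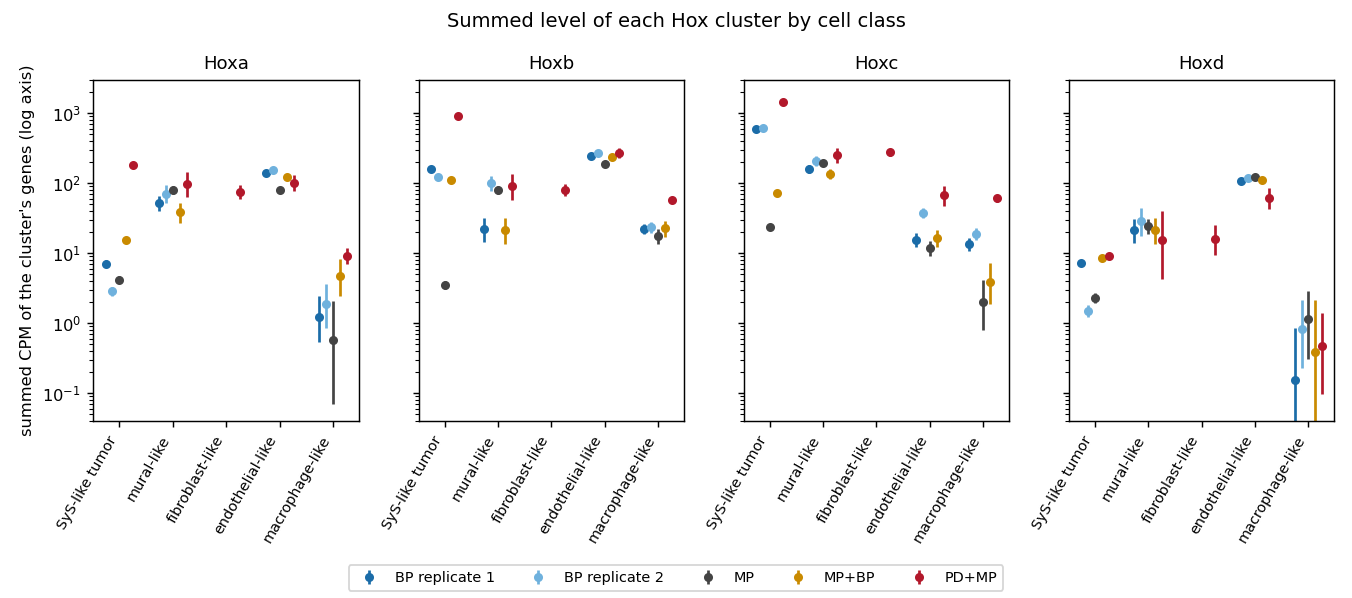
Summed CPM (log axis) of the genes of each Hox cluster by cell class, 1 point per tumor with its exact 95% Poisson interval. Tumor cells spread over 60.3-fold in Hoxc and 254-fold in Hoxb between tumors, while mural-like and endothelial-like cells stay within 1 order of magnitude in all 4 clusters.

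The promoters of 3 of these genes are shown because their genes gave 3 different patterns, namely Hoxa13 (over all SyS-like cells of a tumor, above 2 CPM only in PD+MP), Hoxb8 (at similar levels in tumor cells of BP replicate 1, MP+BP and PD+MP) and Hoxd8 (in mural-like and endothelial-like cells). Each run is the 250 bases before the RefSeq start, 5′ to 3′ on the gene's strand, in build GRCm38.p6, with CG dinucleotides in capitals since Polycomb complexes in mammals mostly occupy CG-rich promoters. The regions are chr6:52260881-52261130 on the minus strand, chr11:96281655-96281904 on the plus strand and chr2:74704365-74704614 on the plus strand.
Hoxa13: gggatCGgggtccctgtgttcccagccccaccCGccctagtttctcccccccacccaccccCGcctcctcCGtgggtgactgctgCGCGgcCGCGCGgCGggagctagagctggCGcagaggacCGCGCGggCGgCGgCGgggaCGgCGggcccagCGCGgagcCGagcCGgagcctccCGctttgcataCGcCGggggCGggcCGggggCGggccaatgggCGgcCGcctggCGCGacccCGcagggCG
Hoxb8: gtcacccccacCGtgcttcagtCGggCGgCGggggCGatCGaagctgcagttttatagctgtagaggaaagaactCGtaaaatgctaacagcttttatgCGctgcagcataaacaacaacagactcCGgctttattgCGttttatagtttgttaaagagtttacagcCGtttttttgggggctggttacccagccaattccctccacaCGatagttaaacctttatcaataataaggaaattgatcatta
Hoxd8: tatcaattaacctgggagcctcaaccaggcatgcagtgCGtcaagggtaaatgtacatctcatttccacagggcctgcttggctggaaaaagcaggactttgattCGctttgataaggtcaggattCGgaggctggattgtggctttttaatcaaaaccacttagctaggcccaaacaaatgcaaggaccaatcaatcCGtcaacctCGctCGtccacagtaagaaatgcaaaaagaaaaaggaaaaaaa
The Hoxa13 run held 35 CG dinucleotides, Hoxb8 12 and Hoxd8 6. Of all 32851 windows in the table, 2.97% held at least 35, 33.5% at least 12 and 50.3% at least 6. A window was found for 22 of the 39 Hox genes (24 windows), with 2 to 35 CG dinucleotides and a median of 12.5, against a median of 6 over all windows. The count of CG dinucleotides was not compared with expression.

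In macrophage-like cells, 2 Hox genes stood at similar levels in every tumor and most others were low. Hoxb4, a gene of blood stem cells, was at 9.41, 7.75, 7.41, 8.92 and 11.3 CPM. Hoxb3 was at 7.10, 7.33, 7.12, 6.60 and 8.46 CPM. In PD+MP other genes passed them, with Hoxb9 the highest of this class at 20.5 CPM and Hoxc10 at 12.2. Outside PD+MP, Hoxb9 lay between 0.285 and 1.89 CPM in this class. In MP the values of Hoxb4 and Hoxb3 exceeded the tumor cells' 0.481 and 0.838 CPM. The Hoxc genes summed to 13.4, 18.9, 1.99, 3.88 and 60.5 CPM, in the order of the tumor cells' own levels, which was MP, MP+BP, the BP tumors and PD+MP. Relative to tumor cells that was 2.23%, 3.03%, 8.43%, 5.32% and 4.24%. The reference genes for free RNA were at 0.716%, 1.02%, 1.43%, 2.55% and 2.22%. Whether free RNA or cell pairs gave the Hoxc UMIs of macrophage-like cells was not tested.

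SyS-like cells were higher than macrophage-like cells in 20 of 24 Hox genes tested and lower in none, against a background of 37.3% of genes higher and 23.6% lower. All 9 Hoxc genes were among the 20, with log2 fold changes from 3.87 ± 0.21 for Hoxc11 (edgeR adjusted p = 9.81e-08) to 4.86 ± 0.38 for Hoxc4 (adjusted p = 1.31e-06). Hoxa13 was higher by 4.77 ± 0.65 (edgeR adjusted p = 9.46e-05), with 17.3 CPM in tumor cells of PD+MP against 0.470 in macrophage-like cells. In the other tumors macrophage-like cells held 0 Hoxa13 UMIs. In the BP tumors and MP, Hoxa13 in tumor cells lay below what 0 UMIs allow, 0.569 to 1.05 CPM, so no difference was detectable there. In MP+BP the exact 95% Poisson intervals overlapped, with 1.28 to 1.92 CPM in tumor cells against up to 1.43. Hoxb3, Hoxb4, Hoxb7 and Hoxa5 did not pass. No Hox gene was lower at an unadjusted p under 0.05 either, nor by DESeq2. With tumor sums thinned to the depth of the macrophage sums, 12 of 15 testable genes passed. Mural-like cells were higher than macrophage-like cells in 11 of 13 genes tested and lower in none (background 27.3% higher and 27.3% lower). The 11 were 7 Hoxc genes, Hoxa3, Hoxa9, Hoxa10 and Hoxd8, and DESeq2 also called 11. Endothelial-like cells were higher in 16 of 21 and lower in none (background 30.1% and 30.3%), with 4 Hoxa, 8 Hoxb and 4 Hoxd genes and no Hoxc gene called. In both comparisons no Hox gene was lower at an unadjusted p under 0.05 or by DESeq2. The filter on low counts keeps a gene that is high in either class. Most Hox genes were low in macrophage-like cells, so those tested entered mostly through the other class. The absence of lower genes against macrophage-like cells, and part of the share higher, thus follow from the filter. Hoxd8 had 0 UMIs in macrophage-like cells of all tumors, and over the 5 tumors was at least 359-fold higher in endothelial-like and at least 126-fold higher in mural-like cells, with the macrophage sum set to 3 UMIs.

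Fibroblast-like cells could be described in PD+MP alone. Hoxc10 was the highest gene there at 80.2 CPM, followed by Hoxc8 at 47.6, Hoxc9 at 40.5, Hoxc6 at 38.8, Hoxa10 at 33.5 and Hoxb9 at 30.9. In tumor cells of the same library Hoxb9 was at 406 CPM and Hoxc10 at 349. The summed Hoxc level was 19.4% of that in tumor cells and the summed Hoxd level 176%, and the reference genes for free RNA were at 3.65%. Hoxa13, Hoxb13 and Hoxd10 to Hoxd13 had 0 UMIs in these 124 cells, which allows up to 3.25 CPM each. With 1 tumor no test was possible.

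The share of cells with any Hox UMI followed the same order. With each cell thinned to 2000 UMIs, 72.7%, 67.5%, 5.85%, 24.2% and 98.2% of the SyS-like cells held at least 1. Before thinning the shares were 96.6%, 95.4%, 21.2%, 40.5% and 99.5%. Macrophage-like cells, thinned alike, gave 8.42%, 9.82%, 5.82%, 4.27% and 19.7%. In MP the Wilson 95% interval of tumor cells, 5.18% to 6.61%, lay within that of macrophage-like cells, 4.06% to 8.29%, with median depths of 11348 and 6759 UMIs before thinning. The macrophage-like cells of MP held 25 Hoxb3 and 26 Hoxb4 UMIs, from genes at similar levels in this class in every tumor. The part of free RNA in the share of macrophage-like cells was not tested. For Hoxc alone, tumor cells of MP had 23.7 CPM and macrophage-like cells 1.99. Endothelial-like cells lay between 57.5% and 72.1% and mural-like cells between 37.2% and 59.1% over the 5 tumors. Between 28 and 387 SyS-like cells per tumor and 3 to 131 cells of the other classes were too shallow and were left out. Intervals cover counting error only.

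Hox proteins bind DNA with TALE cofactors of the Pbx, Meis and Pknox families. Of the 9 cofactor genes, 4 were higher in SyS-like than in mural-like cells and none lower, 6 were higher and none lower than in endothelial-like cells, and 5 were higher and 2 lower than in macrophage-like cells. The background of genes higher in these 3 comparisons was 20.2%, 30.7% and 37.3%, and of genes lower 11.3%, 18.9% and 23.6%. Meis1, Meis2 and Pknox2 were higher in all 3 comparisons. Meis1 and Meis2 differed less than 2-fold between tumors. Meis1 stood at 187, 209, 214, 142 and 224 CPM, and against mural-like cells its log2 fold change was 2.71 ± 0.21 (edgeR adjusted p = 2.57e-06). Meis2 stood at 318, 294, 373, 357 and 363 CPM. MP, with the lowest Hox level, had the highest Meis2 level of the 5 tumors. Pbx2 and Meis3 were lower than in macrophage-like cells.

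Long noncoding RNAs are transcribed from within the clusters, and 10 of the 11 listed were among the features. Hotair, from the Hoxc cluster, stood at 10.5, 12.7, 0.137, 1.0 and 30.4 CPM in tumor cells, lowest in MP and highest in PD+MP like the Hoxc genes. It was higher in tumor cells than in mural-like cells (log2 fold change 1.62 ± 0.56, edgeR adjusted p = 0.041) and in both other comparisons. Hottip and Hoxa11os, at the posterior end of Hoxa, were at 5.64 and 54.7 CPM in PD+MP tumor cells and at most 0.239 and 1.96 CPM in the other 4 tumors. Hoxd3os1 was lower in tumor cells than in mural-like (log2 fold change -4.35 ± 0.39, edgeR adjusted p = 6.82e-06) and endothelial-like cells, like Hoxd8. Of 8 noncoding genes tested against mural-like cells, 2 were higher and 2 lower, and of 9 tested against endothelial-like cells 2 were higher and 4 lower. The background was 20.2% higher and 11.3% lower in the former comparison and 30.7% and 18.9% in the latter, so the shares higher were near or below it. Hoxa11os lies antisense to Hoxa11 and Hoxd3os1 antisense to Hoxd3 and Hoxd4.

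Of the 6 limb field genes, which set up forelimb or hindlimb identity and outgrowth, all 6 were higher in SyS-like than in endothelial-like and macrophage-like cells, and 3 were higher than in mural-like cells. The background of genes higher was 30.7%, 37.3% and 20.2% in that order. Shox2, needed for the upper limb bones, was the only one at a high level, at 126, 95.9, 136, 168 and 91.0 CPM. In mural-like cells it stood at 40.0, 35.5, 80.4, 91.1 and 15.6 CPM, and the log2 fold change was 1.04 ± 0.24 (edgeR adjusted p = 0.00533). The hindlimb genes Tbx4 and Pitx1 were at 1.57 to 11.8 and 0.412 to 4.18 CPM in tumor cells, and the forelimb gene Tbx5 at 0.357 to 7.94 CPM. Tbx4 and Tbx5 were lowest in PD+MP, where the Hox level was highest.

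In the GENCODE M21 annotation of GRCm38 the Hoxa members lie on chromosome 6, and the Hoxb members span positions 96194316 to 96368256 of chromosome 11, Hoxc 102921103 to 103036852 of chromosome 15 and Hoxd 74668310 to 74765142 of chromosome 2. Transcripts of neighbors overlap in places, and reads in shared bases can be missing from single genes and from cluster sums. Hoxc5 and Hoxc10 share 166 exonic bases, which is 8.70% of those of Hoxc10, and Hoxd3 and Hoxd4 share 388, which is 13.2% of those of Hoxd4. Values of these 4 genes are therefore uncertain. The span of Hoxc5 also covers Hoxc6, Hoxc8 and Hoxc9, and that of Hoxa3 covers Hoxa4, Hoxa5 and Hoxa6. The size of any effect of these overlaps was not tested.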

How the data were processed

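Tumors were dissociated to single cells and sequenced with droplet-based 3′ libraries (10x v3.1). Per the file headers, the authors ran Cell Ranger 7.2.0. They deposited its filtered matrices, 1 per tumor, which hold unnormalized UMI counts for each cell, with mm10 as the build in the submitters' processing notes. Totals were 89996321 to 118649103 UMIs per library. Of 51670 called cells, 39559 were kept here, with at least 750 genes and at most 25% mitochondrial UMIs, the limits of the study's methods. The Scrublet routine of scanpy 1.11.5 scored doublets. Its automatic threshold marked 0 cells in MP+BP and PD+MP, so the highest scores up to 0.8% per 1000 cells were removed (2957 cells).

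Cells of all tumors were clustered together on 3000 features (Pearson residuals, 30 principal components, 20 neighbors, Leiden resolution 1, no batch correction). Hox genes and every list below were kept out of the features. Clusters were named X-like from marker lists when at least 3 markers were high and no other class had more markers among the 10 leading genes. These names are rebuilt here and may differ from the study's. Of 36 clusters, those left unnamed held 22.4% of kept cells.

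UMIs were summed per tumor and class with at least 20 cells and tested with edgeR 4.0.16 (TMM, filterByExpr, quasi-likelihood test, Benjamini-Hochberg over all genes tested) with the tumor as a block, or without one for the biphasic label. Alternatives were no scaling, DESeq2 1.42.0, other filters on counts and cells, doublets kept, no block, 1 fit over 4 classes, thinning and leaving out each tumor. On simulated sums, 82% of genes changed by 2 on the log2 scale were recovered for tumor against mural cells. All 39 Hox genes were accounted for, with folds only for those called. Single values of some listed genes are not reported here, and they were left out of the plots of single genes. The cofactor, noncoding, limb field and reference lists and the members were chosen with earlier results of these data known. The labels do not say whether the BP pair came from different mice, so its spread may be that of 1 animal.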

Additional observations from a re-analysis of the deposited data

How the results depend on the processing

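DESeq2, no scaling beyond total counts, at least 1500 genes per cell, doublets kept and the unnamed clusters added left every count of called Hox genes within 1.5 times of the reported one. Requiring at least 10 counts in every sum left 0 calls against mural-like cells, 2 against endothelial-like cells and 0 against macrophage-like cells, then 0 and 2 for mural-like and endothelial-like against macrophage-like cells, because few Hox genes could still be tested. Without the tumor as a block, 4 Hox genes were called against mural-like cells. With tumor sums thinned to the other class, 4 were called against mural-like and 12 against macrophage-like cells, among 16 and 15 genes testable. For mural-like against macrophage-like cells no filter on low counts gave 17 calls and 1 fit over 4 classes 18. Leaving out 1 tumor at a time gave 8 to 16 calls against mural-like cells, 22 to 24 against endothelial-like cells and 17 to 25 against macrophage-like cells. It gave 9 to 14 for mural-like and 16 to 17 for endothelial-like against macrophage-like cells, and 0 to 8 for the biphasic label. The upper ends of the first and the last range are those without MP. The cause of the other changes was not tested.

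Among all genes, the share of calls that were higher in tumor cells was 56.6%, 56.0% and 56.6% against mural-like, endothelial-like and macrophage-like cells with TMM, and 71.6%, 67.9% and 76.7% without scaling. For mural-like and endothelial-like against macrophage-like cells it was 49.2% and 49.1% with TMM and 62.6% and 65.0% without. Without scaling, the middle value of log2 fold changes over all genes moved from 0.164 to 0.422, from 0.151 to 0.404, from 0.205 to 0.83, from -0.011 to 0.235 and from -0.028 to 0.272 in that order. Of the called Hox genes, no fold changed sign under any alternative. No paired analysis was possible because the labels give no replicate numbers shared between histologies. Classes of a tumor were paired through the tumor itself. Mural-like cells of PD+MP (39) and its endothelial-like cells (81) limit what can be detected there, and 3 of 4 labels rest on 1 tumor.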
